A study of Mus musculus with 9 samples.

Results

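The SOCS family comprises 8 genes in the mouse, Cish and Socs1 to Socs7, and their transcripts were followed in murine Tc17 cells, the IL-17-producing type of CD8+ T cell, treated with dimethyl fumarate (DMF). The members were taken by gene symbol, and all 8 were found among the 41388 genes measured. Naive CD62L+CD44-CD8+ T cells were sorted from lymph nodes and spleens of C57BL/6 mice aged 8 to 12 weeks. All 9 cultures were primed for 2 days on plate-bound anti-CD3 (5 µg/ml) with soluble anti-CD28 (0.5 µg/ml), human IL-2 (50 U/ml), human TGF-β (0.5 ng/ml), murine IL-6 (30 ng/ml) and an antibody to IFN-γ (5 µg/ml). All cultures also contained 0.2% DMSO, which the control cultures (Ctrl) received alone, while the second group received 20 µM DMF and the third 20 µM DMF with 50 µM glutathione (GSH), with 3 libraries in each group, numbered R1 to R3. R1 of every group belongs to the first preparation batch, and R2 and R3 belong to the second. The comparisons ask what DMF, which lowers cellular glutathione, does to these transcripts, and whether added GSH changes that. The study describes its replicates in general as independent biological ones, but the labels do not tie the numbers to separate mice or cultures, and where they are not separate the p-values measure only the spread between these libraries.

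SOCS proteins are brakes on cytokine signalling. A cytokine receptor activates JAK kinases, which phosphorylate STAT factors, and the STATs enter the nucleus and switch on genes that include the SOCS genes themselves, so that the family closes a negative feedback loop. Each member carries an SH2 domain, which finds its phosphorylated target, and a SOCS box, which recruits a cullin-RING ubiquitin ligase. Cish and Socs2 are classical targets of STAT5, the factor that IL-2 activates in T cells. Socs3 is a classical target of STAT3, the factor that IL-6 activates, and its protein binds the IL-6 receptor chain gp130. Both cytokines were present in every culture.

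DMF moved the members in opposite directions. Relative to Ctrl, Cish rose 1.41-fold, Socs2 1.33-fold and Socs4 1.20-fold, whereas Socs3 fell to 0.507 of its level (n = 3 libraries per group). With GSH added to DMF, Cish and Socs2 fell and Socs3 rose relative to DMF alone, and no member of the family differed from Ctrl past the test. These calls (limma, adjusted p under 0.01 over 11599 genes) rest on comparing libraries of the same replicate number, with that number as a block in the model. Of all genes, 33.2% passed for DMF against Ctrl, 29.2% for DMF + GSH against DMF and 0.0259% for DMF + GSH against Ctrl. With the preparation batch in place of the block, the fold changes were the same and 0 of 8 members passed in any comparison. Of all genes, 7.19%, 0.819% and 0 then passed, in the same order. This fit with the batch, which leaves the difference between R2 and R3 in the error, is meant wherever a value without the block is given.

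The libraries held 7671772 to 14511926 reads assigned to genes, and each member was counted with 164 to 2137 reads per library. The cells carried the markers of the labelled type. The summed normalized count of 7 CD8 T cell markers was 33393 to 39022 in Ctrl, 31984 to 37899 in the DMF libraries and 33157 to 40833 after GSH was added, and Cd4 was between 0 and 4.40. Within that sum, Ctrl and DMF libraries did not overlap for 3 of the 7 markers, beside 41.3% of all genes tested. Cd8a was at 9483 to 10599 in Ctrl and 10923 to 13778 in DMF, whereas Lck was at 8417 to 8719 in Ctrl and 6690 to 7956 in DMF, and Trac at 3492 to 3887 and 3066 to 3355. The part of these marker differences in the results of the family was not tested. Of the 4 B cell markers, Cd79b accounted for most of a sum of 58.1 to 92.0, and the sum of the 2 NK cell markers reached at most 4.16. The 5 myeloid markers summed to 235 in Ctrl R3, where Lyz2 stood at 119, and to between 9.42 and 29.0 in the other 8 libraries. Ctrl R3 is also the shallowest library, and the results of Cish and Socs1 to Socs4 for DMF against Ctrl are therefore also given without it. A lower share of cells with a transcript and less transcript per cell cannot be told apart in bulk RNA.

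The promoters of the members that carry the result are shown here because STAT factors bind the palindrome TTCNNNGAA, where N is any base. Promoter windows of 280 bases, from 250 bases before to 30 after the annotated start, came from the RefSeq table of GRCm38.p6. The windows of 4 of the 8 members were searched, those of Cish, Socs1, Socs3 and Socs4. No entry was found for Socs2, Socs5 and Socs7. Socs6 was left out of the search, so whether its promoter holds the palindrome was not tested. The Cish window is chr9:107296409-107296688 on the plus strand and the Socs3 window is chr11:117969337-117969616 on the minus strand. Positions in a window are counted from the RefSeq start, which lies 633 bases inside the gene as GENCODE annotates it for Cish and 681 bases inside it for Socs3, so both windows fall within the gene positions given with the counts. Both are written 5′ to 3′ on the strand of the gene, with the palindrome in capitals.
Cish: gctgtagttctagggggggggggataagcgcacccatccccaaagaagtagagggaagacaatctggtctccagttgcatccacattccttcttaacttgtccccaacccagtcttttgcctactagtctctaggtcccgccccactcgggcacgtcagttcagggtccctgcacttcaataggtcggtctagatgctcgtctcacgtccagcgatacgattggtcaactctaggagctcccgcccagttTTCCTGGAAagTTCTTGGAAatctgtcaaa
Socs3: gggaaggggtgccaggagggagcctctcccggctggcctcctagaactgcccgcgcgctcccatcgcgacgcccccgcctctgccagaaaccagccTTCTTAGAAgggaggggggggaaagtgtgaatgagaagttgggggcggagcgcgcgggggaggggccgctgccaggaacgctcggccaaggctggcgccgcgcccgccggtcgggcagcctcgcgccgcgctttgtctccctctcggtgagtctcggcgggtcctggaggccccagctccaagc
The Cish window holds the palindrome at 2 places, TTCCTGGAA at bases 1 to 9 after the start (chr9:107296659-107296667) and TTCTTGGAA at bases 12 to 20 (chr9:107296670-107296678). The Socs3 window holds TTCTTAGAA once, at 154 to 146 bases before the start (chr11:117969512-117969520). The windows of Socs1 and Socs4 hold no such run of letters. Among 32851 promoter windows of the same length, 7.83% hold the palindrome at least once and 0.408% hold it at least 2 times, and it reads the same on both strands. A match is a description of the sequence and no evidence that a factor was bound.

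The abundance of the members in Ctrl was compared per kilobase of exon. Counted over the union of annotated exons, the order of mean levels was Socs3 (384 ± 113 normalized counts per kb, SD, n = 3), Cish (203 ± 14.7), Socs2 (119 ± 35.3), Socs4 (115 ± 19.2), Socs1 (107 ± 34.3), Socs7 (90.6 ± 4.73), Socs5 (34.6 ± 2.94) and Socs6 (19.5 ± 1.33). Socs2, Socs4, Socs1 and Socs7 overlapped with their neighbours in this order, whereas Socs3, Cish, Socs5 and Socs6 were each separated from the member next to them. The top of the order depends on the length used. Per kilobase of the longest coding transcript, a choice made after the data were seen, Socs2 stood at 512 ± 151, Cish at 457 ± 33.1 and Socs3 at 435 ± 128, because the exon union of Socs2 is 9531 bases long and its longest coding transcript 2222. In both orders Socs5 and Socs6 were the least abundant members.

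Cish (chr9:107296026-107302784, plus strand, GRCm38) encodes CIS, a STAT5-induced inhibitor of IL-2 and T cell receptor signalling. Its normalized count was 1410, 1235 and 1261 in Ctrl R1, R2 and R3, 2261, 1405 and 1928 in DMF, and 1174, 1024 and 1495 in DMF + GSH. Every DMF library was above the Ctrl library of its number, but DMF R2 lay just under Ctrl R1, so the groups overlapped. DMF over Ctrl was 1.60 in R1 (the first batch), 1.14 in R2 and 1.53 in R3. The log2 fold change (log2FC, on the scale of log2(normalized count + 1)) was 0.49 (SE 0.0956, 95% interval 0.29 to 0.69, limma adjusted p = 0.000356). Without the block the adjusted p was 0.0479, with the block and robust moderation it was 0.0155, which did not pass, and without Ctrl R3 the log2FC was 0.38 (adjusted p = 0.00777). With GSH added, Cish fell by 0.59 on the log2 scale relative to DMF (adjusted p = 7.23e-05, limma, and 0.0315 without the block), and it was lower in all 3 replicate numbers. Cish overlaps 2 annotated genes of the other strand, a pseudogene (Gm17040) at 0.972 to 8.53 normalized counts and an antisense gene (Gm17041) at 0 in all 9 libraries, and a strand setting for the counting was not given in the labels or the methods.

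Socs2 (chr10:95385362-95417180, minus strand), another STAT5 target and best known as the brake on growth hormone signalling, had a normalized count of 1046, 856 and 1509 in Ctrl R1, R2 and R3. With DMF the counts were 1611, 1139 and 1742, and with DMF + GSH they were 889, 826 and 1564. R3 was the highest library of each group and R2 the lowest, and within each number DMF was above both other groups, although the groups overlapped. The ratio of DMF to Ctrl was 1.54 in R1, 1.33 in R2 and 1.15 in R3. The log2FC was 0.41 (SE 0.0877, 95% interval 0.23 to 0.60, limma adjusted p = 0.000784), and without the block its adjusted p was 0.274. Leaving out DMF R1 gave a log2FC of 0.27 and an adjusted p of 0.0136 by limma, which no longer passed, and leaving out Ctrl R3 gave 0.43 (adjusted p = 0.00373). Relative to DMF, Socs2 fell by 0.49 on the log2 scale with GSH (limma adjusted p = 0.000187, and 0.212 without the block).

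Socs1 (chr16:10782240-10785536, minus strand), the inhibitor of JAK kinases and of interferon-γ signalling, showed a log2FC close to that of Cish but did not pass the test in the main fit. Its normalized count was 249, 258 and 427 in Ctrl R1 to R3, 453, 311 and 498 in DMF, and 190, 354 and 313 in DMF + GSH. DMF was above Ctrl within every number, while R2 went against the other two numbers under GSH, being higher with GSH than with DMF alone. The log2FC of DMF against Ctrl was 0.45 (SE 0.169, 95% interval 0.09 to 0.80, limma adjusted p = 0.0373, and 0.203 without the block). It passed without DMF R2 (adjusted p = 0.00175, limma) and without DMF + GSH R2 (adjusted p = 0.00248), and without Ctrl R3 the log2FC was 0.59 (adjusted p = 0.0254). Without DMF R1 the log2FC was 0.18 (limma adjusted p = 0.416), without Ctrl R2 it was 0.35 (0.194) and without Ctrl R1 it was 0.41 (0.131). In the other alternatives with the block, which left out no single library, the adjusted p (limma, edgeR or voom) ranged from 0.00225 to 0.275, and the lowest passed. For DMF + GSH against DMF the log2FC was −0.58 (limma adjusted p = 0.0104), and it passed when DMF R2 (adjusted p = 0.000416) or DMF + GSH R2 (adjusted p = 1.28e-05) was left out. Leaving out DMF R1 gave −0.31 (limma adjusted p = 0.163), DMF + GSH R1 −0.34 (0.141) and DMF + GSH R3 −0.47 (0.0764). For DMF + GSH against DMF, the alternatives with the block that left out no single library gave adjusted p-values (limma, edgeR or voom) from 8.02e-05 to 0.183, and the lowest passed.

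Socs3 (chr11:117966079-117970047, minus strand), the brake on IL-6 signalling through gp130 and STAT3, moved the other way and by the most in the family. Its normalized count was 1109, 1435 and 784 in Ctrl R1, R2 and R3. With DMF it was 634, 616 and 415, and with DMF + GSH it was 1014, 1228 and 657. All DMF libraries lay below all Ctrl libraries and below all DMF + GSH libraries, and R3 was the lowest library of each group. DMF over Ctrl was 0.571 in R1, 0.429 in R2 and 0.530 in R3. The log2FC was −0.98 (SE 0.0763, 95% interval −1.14 to −0.82, limma adjusted p = 1.50e-08), rank 93 of the 11599 genes by p. Without the block its SE rose to 0.263 and its adjusted p to 0.0228. Leaving out each library in turn, with the block, gave log2FCs from −1.05 to −0.87 and limma adjusted p-values of at most 1.40e-06, and without Ctrl R3 the log2FC was −0.98. With GSH, Socs3 rose 1.71-fold relative to DMF (log2FC 0.78, SE 0.0763, limma adjusted p = 2.83e-07, and 0.0585 without the block).

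Socs4 (chr14:47276931-47296102, plus strand), known as a regulator of EGF receptor signalling, showed the smallest of the differences that passed. Its normalized count was 642, 856 and 884 in Ctrl R1 to R3, 882, 928 and 1014 in DMF, and 755, 817 and 798 in DMF + GSH. DMF R1 lay just under Ctrl R3, so DMF overlapped with Ctrl, whereas every DMF library was above every DMF + GSH library. The log2FC of DMF against Ctrl was 0.26 (SE 0.0751, limma adjusted p = 0.00897), and the adjusted p was just under 0.05 without the block, 0.0106 with edgeR and 0.0105 with voom. It also missed the test without Ctrl R1 (log2FC 0.15, limma adjusted p = 0.116), Ctrl R2 (0.0120), DMF R1 (0.0597), DMF R3 (0.0422) or DMF + GSH R2 (0.0108), and without Ctrl R3 the log2FC was 0.31 (0.00907). For DMF + GSH against DMF the log2FC was −0.25 (limma adjusted p = 0.0117), and it passed without Ctrl R1, without DMF R2 or without DMF + GSH R1 (adjusted p of 0.00404, 0.00883 and 0.00684). In the alternatives with the block that left out no single library, the adjusted p of this comparison (limma, edgeR or voom) ranged from 0.00787 to 0.0141.

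Socs5, Socs6 and Socs7, which like Socs4 have a long N-terminal region and are known mainly for growth factor and insulin receptor signalling, showed the smallest differences between DMF and Ctrl. Socs5 (chr17:87107679-87137839, plus strand) averaged 222 ± 18.9 normalized counts in Ctrl, 214 ± 34.0 with DMF and 208 ± 8.37 with DMF + GSH (SD, n = 3). Socs6 (chr18:88665224-88927481, minus strand) averaged 222 ± 15.1, 220 ± 13.5 and 217 ± 5.76 normalized counts, and 3 processed pseudogenes overlap it. Socs7 (chr11:97362551-97398542, plus strand) averaged 658 ± 34.4, 679 ± 40.0 and 651 ± 16.7. The 3 groups overlapped for each of these members. The 95% interval of the log2FC of DMF against Ctrl was −0.29 to 0.16 for Socs5, −0.23 to 0.20 for Socs6 and −0.10 to 0.19 for Socs7, with limma adjusted p-values of 0.645, 0.921 and 0.622. A difference of the size seen for Cish or Socs3 lies outside all of these intervals.

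**Figure D1:**
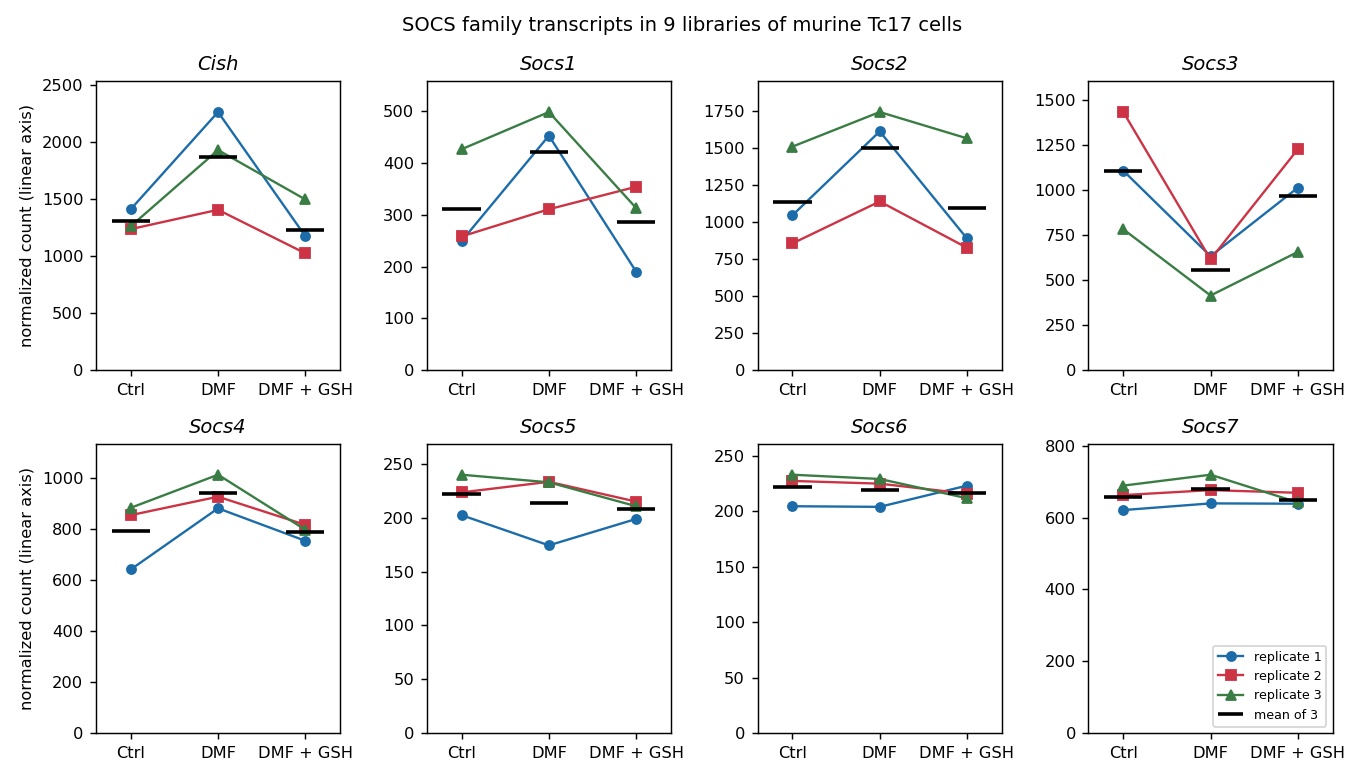
Normalized counts (linear axis from 0) of the 8 SOCS family genes in Ctrl, DMF and DMF + GSH, where each coloured line joins the libraries of 1 replicate number and the black bar is the mean of 3. Socs3 is the only member whose DMF libraries (415 to 634) lie apart from Ctrl (784 to 1435), and the lines of Cish, Socs2, Socs4 and Socs7 peak at DMF in each replicate number.

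Counted over the family, 4 of 8 members passed the test for DMF against Ctrl, 3 higher and 1 lower, where 33.2% of all genes tested passed (17.6% higher and 15.6% lower). A stricter rule, which also asks for an absolute log2FC of at least 0.75, was met by Socs3 alone, 1 of 8, against 6.8% of all genes. The groups did not overlap for 1 of 8 members, Socs3, and for 41.3% of all genes. The family's share of calls was thus near the background of a treatment that moved many genes, and the direction of each member is what the values above describe. The median log2FC over the 8 members was 0.15, and over all genes it was 0.01. With the batch in place of the block, 7.19% of all genes passed and 0 of 8 members did. At an adjusted p under 0.05, with the block, 5 of 8 members and 45% of all genes passed. Leaving out 1 library at a time, with the block, left 2 to 5 members past the test (and 2731 to 4043 of all genes), with 2 (Cish and Socs3) without DMF R1 and 4 without Ctrl R3.

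For DMF + GSH against DMF, 3 of 8 members passed, 1 higher (Socs3) and 2 lower (Cish and Socs2), where 29.2% of all genes passed, 13.7% higher and 15.6% lower. Socs3 was again the only member past the stricter rule, which 5.69% of all genes met. The groups did not overlap for 2 of 8 members, Socs3 and Socs4, and for 38.3% of all genes. At an adjusted p under 0.05 with the block, 5 of 8 members and 41.5% of all genes passed. With the batch in place of the block, 0 of 8 members and 0.819% of all genes passed. This comparison shares the DMF libraries with that of DMF against Ctrl, so an opposite sign in the pair is not independent evidence.

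For DMF + GSH against Ctrl, 0 of 8 members passed in limma, edgeR or voom, where 0.0259% of all genes passed in limma. At an unadjusted p under 0.05, in these fits with the block, there was 1 of 8 members in each tool, beside 599 (5.16%), 626 and 632 of all genes in limma, edgeR and voom. That member in limma was Socs3, which was below Ctrl in all 3 replicate numbers (0.915, 0.856 and 0.839 of Ctrl), with a log2FC of −0.20 (95% interval −0.36 to −0.04, unadjusted p = 0.0161, adjusted p = 0.794). Without the block the SE of this log2FC was 0.263. The log2FC of Cish was −0.10 (95% interval −0.30 to 0.10), that of Socs2 was −0.08 (−0.26 to 0.11) and that of Socs4 was 0.01 (−0.15 to 0.16). The interval was widest for Socs1, from −0.48 to 0.23. A p that misses the threshold does not show that the levels were equal.

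**Figure D2:**
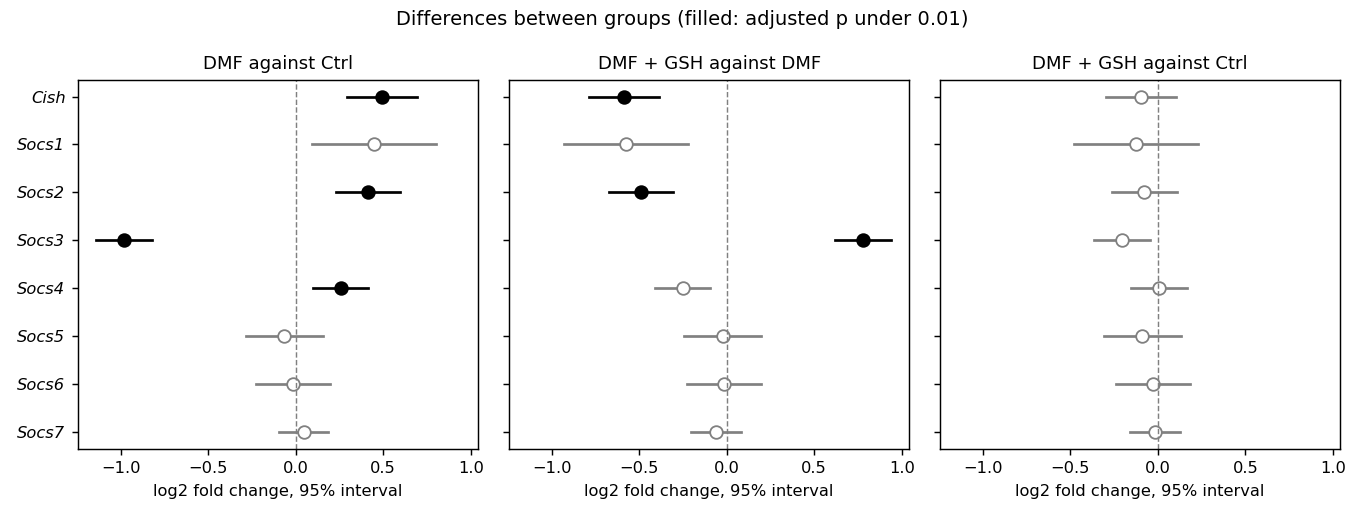
log2 fold changes of the 8 members in 3 comparisons with their 95% intervals (limma with the replicate number as a block), where filled points have an adjusted p under 0.01 over all genes. In DMF against Ctrl, Socs3 stands at −0.98 and Cish at 0.49, and in DMF + GSH against Ctrl the points lie between −0.20 and 0.01.

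Cish and Socs3 can also be set against each other within each library, where the scaling of the library cancels. A ratio to Socs3 rises whenever Socs3 falls, also with a level numerator, so it does not show that the other gene rose. The ratio of the Cish count to the Socs3 count, not corrected for length, was 1.27, 0.861 and 1.61 in Ctrl R1 to R3. It was 3.57, 2.28 and 4.64 in DMF, and 1.16, 0.834 and 2.28 in DMF + GSH. Within each number the DMF library had the highest ratio, and R3 had the highest ratio and R2 the lowest in every group. The lowest DMF ratio (R2) was close to the highest DMF + GSH ratio (R3). The ratios of Socs2 and of Socs1 to Socs3 were also highest in the DMF library of each number, but their DMF and Ctrl libraries overlapped. The ratio of Socs2 to Socs3 was 0.943, 0.596 and 1.93 in Ctrl, 2.54, 1.85 and 4.20 in DMF, and 0.876, 0.673 and 2.38 in DMF + GSH. The ratio of Socs1 to Socs3 was 0.225, 0.180 and 0.544 in Ctrl, 0.715, 0.504 and 1.20 in DMF, and 0.188, 0.288 and 0.476 in DMF + GSH. The ratio of Cish to Socs2, by contrast, ranged from 0.836 to 1.44 in Ctrl, from 1.11 to 1.40 with DMF and from 0.956 to 1.32 with DMF + GSH, and the groups overlapped.

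**Figure D3:**
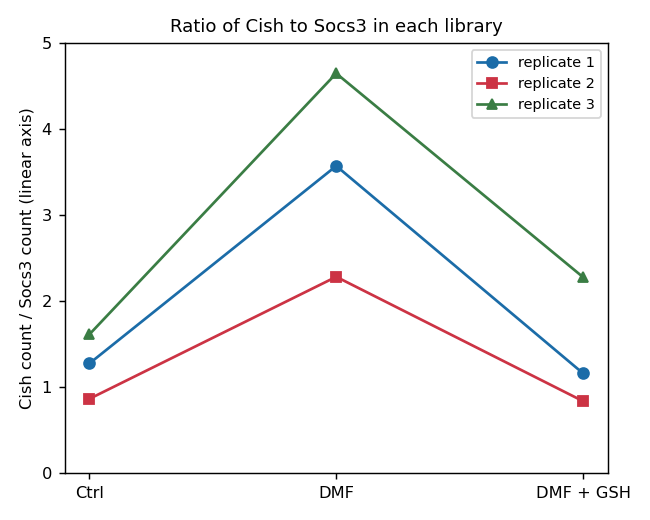
Ratio of the Cish count to the Socs3 count in each of the 9 libraries (linear axis from 0), with lines joining the libraries of 1 replicate number. The ratio is 2.28 to 4.64 with DMF and 0.861 to 1.61 in Ctrl.

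The genes whose pattern was most like each member were those with the smallest root mean square difference (RMS, log2 units) over 6 paired ratios, of DMF and of DMF + GSH to Ctrl in R1, R2 and R3. For Cish these were Rreb1 (RMS 0.0782), Tmem206 (0.106) and Smim3 (0.114). For Socs2 they were Mmachc (0.0522), Telo2 (0.0679) and Ino80e (0.0709), and for Socs4 they were 1190002N15Rik (0.0486), Ppp2r2a (0.0576) and Exosc4 (0.0579). Socs3 was closest to Ssh2 (0.115), Atp6v1g2 (0.132) and Stat4 (0.135). For Socs1, whose numbers disagreed most, the nearest gene was 0610012G03Rik (0.147), followed by Rsg1 and Mplkip. Socs5 was nearest to Hsdl1, Bfar and Pigo, Socs6 to Ahcyl1, Fli1 and Uba3, and Socs7 to 1200014J11Rik, Ogdh and Fam120a, with RMS differences of 0.0226 to 0.0506, as is easily met by genes with small differences. These are descriptions over 6 ratios that share the Ctrl libraries.

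Around the family, the receptors, kinases and STATs that SOCS proteins restrain were read from lists of named genes. Their counts for DMF against Ctrl stand beside 17.6% of all genes tested that rose and 15.6% that fell. Of 4 JAK kinases, 3 fell with DMF and 0 rose (median log2FC −0.33). Jak2 went from 2479 ± 191 normalized counts in Ctrl to 1786 ± 130 (log2FC −0.47, limma adjusted p = 3.12e-06), Jak3, the kinase of the common γ chain, had a log2FC of −0.38 and Jak1 of −0.27. All DMF libraries were below all Ctrl libraries for these kinases, where the groups did not overlap for 41.3% of all genes tested. Jak2 and Jak3 also passed without the block (adjusted p = 0.00911 and 0.00933, limma), whereas Jak1 did not (0.0479). Of 7 STAT factors, 1 rose and 2 fell. Stat5a rose from 1850 ± 75.4 to 2249 ± 235 normalized counts (log2FC 0.28, limma adjusted p = 0.00239), while Stat5b stood at a log2FC of −0.12 and Stat3 at −0.06 without passing. Stat4, the factor of IL-12 signalling, fell from 479 ± 159 to 251 ± 72.3 (log2FC −0.91, limma adjusted p = 9.32e-08) and Stat2 fell by 0.36 on the log2 scale, and without the block none of these STAT calls passed (adjusted p of 0.0342, 0.0532 and 0.0459 for Stat5a, Stat4 and Stat2).

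Of 22 cytokine receptor chains, 19 were tested, 3 rose and 9 fell with DMF (median log2FC −0.24). Il2ra, the high-affinity IL-2 receptor chain CD25, was at 7067, 7288 and 11612 normalized counts in Ctrl, 19821, 13025 and 20545 in DMF, and 7017, 6537 and 11456 in DMF + GSH. Its DMF libraries lay above all others, and its log2FC was 1.05 (limma adjusted p = 7.14e-08, and 0.0170 without the block). Il2rb, the chain that CIS is known to act on, was at 9474 ± 711 in Ctrl and 9543 ± 804 with DMF (log2FC 0.01, limma adjusted p = 0.889). Il2rg, the common γ chain that completes the IL-2 receptor, fell from 3052 ± 358 to 2583 ± 250 normalized counts (log2FC −0.24, limma adjusted p = 0.00142, and 0.168 without the block). Il12rb1 (log2FC 0.66) and Il15ra (0.58) were the others that rose, and neither passed without the block (limma adjusted p = 0.0241 and 0.0523). On the IL-6 side, Il6st, which encodes gp130, was at 2382, 2709 and 1961 in Ctrl, 1821, 1840 and 1522 in DMF, and 2127, 2203 and 1741 in DMF + GSH. Il6st fell by 0.44 on the log2 scale (limma adjusted p = 4.26e-06, and 0.0327 without the block), and Il6ra fell by 0.73 (6.53e-06, and 0.00775 without the block). Il23r (log2FC −1.46), Il7r (−1.05) and Ifngr1 (−0.84) fell past the stricter rule, and without the block Il7r and Ifngr1 passed (both 0.00649, limma adjusted p) and Il23r did not (0.0128). Il23r had low counts, 45.7, 81.7 and 101 in Ctrl R1 to R3 and 12.7, 51.4 and 25.2 in DMF, and these groups overlapped.

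Among 11 cytokine genes, 5 were expressed enough to be tested. Ifng, the cytokine whose signalling Socs1 restrains, rose from 106 ± 41.5 to 741 ± 165 normalized counts with DMF (log2FC 2.87, limma adjusted p = 4.73e-09), in cultures that all held an antibody to its protein. Il21 (log2FC −1.34) and Lif (−0.86) fell, and these 3 cytokine calls also passed without the block. In DMF + GSH, Ifng was at 98.4 ± 18.0 and Il21 at 392 ± 76.6, beside 437 ± 97.1 in Ctrl and 178 ± 64.4 with DMF, and both differed from DMF past the test (log2FC −2.89 and 1.20, limma adjusted p = 7.91e-09 and 9.63e-07). Lif was at 114 ± 61.4 in Ctrl, 59.3 ± 26.9 with DMF and 71.2 ± 30.5 with DMF + GSH. Its log2FC for DMF + GSH was 0.27 against DMF (limma adjusted p = 0.206) and −0.59 against Ctrl (0.442), and neither passed.

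Of 9 partners with which the SOCS box forms a ubiquitin ligase, 5 rose and 0 fell with DMF (median log2FC 0.25), where 17.6% of all genes rose and 15.6% fell. Nedd8, the modifier that activates cullins, rose from 1124 ± 15.8 to 1413 ± 52.0 (log2FC 0.33, limma adjusted p = 0.00111), Eloc, encoding elongin C, had a log2FC of 0.32 and Elob, encoding elongin B, of 0.30. Cul5, the cullin of the SOCS ligases, had a log2FC of 0.25 and Cul2 of 0.26. None of the 5 passed without the block, where their limma adjusted p-values were 0.0136 to 0.0841. Of 12 other brakes on JAK-STAT signalling, 1 rose and 4 fell. Cblb, a ubiquitin ligase that dampens T cell activation, fell from 2609 ± 502 to 1541 ± 423 (log2FC −0.78, limma adjusted p = 9.55e-08, and 0.0260 without the block), Pias3, an inhibitor of STAT3, fell by 0.49, Ptprc fell by 0.38 and Pias1 by 0.29, while the phosphatase gene Ptpn11 rose (log2FC 0.26). Without the block these 4 did not pass either (limma adjusted p of 0.0305, 0.0326, 0.0552 and 0.0360). Of 17 other genes with a SOCS box, 13 were tested and 1 changed, Wsb2, which fell by 0.35 (limma adjusted p = 0.00702, and 0.0420 without the block).

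Genes that STAT5 and STAT3 are known to induce were read beside Cish and Socs3. Of 8 genes listed as induced by IL-2 and STAT5, 5 rose and 0 fell with DMF (median log2FC 0.59), beside 17.6% and 15.6% of all genes. They were Gzmb (log2FC 2.09), encoding granzyme B, Lta (2.11), Il2ra, the survival gene Bcl2l1 (0.65) and the cyclin gene Ccnd2 (0.54), and Pim1, Bcl2 and Osm had log2FCs of −0.01, 0.08 and −0.18. Of 6 genes listed as induced by IL-6 and STAT3, 0 rose and 4 fell (median log2FC −0.73), namely Il23r, Il21, Bcl3 (−0.76) and Maf (−0.70), and Junb and Batf had log2FCs of −0.11 and −0.17. Without the block, 4 of the 5 and 3 of the 4 still passed. Il2ra, Osm, Il21 and Il23r also stand in the receptor or cytokine lists above. Over all pathway lists together, 38 of 79 genes tested passed for DMF against Ctrl, 15 higher and 23 lower, beside 33.2% of all genes. Of these, 14 also passed without the block, where 7.19% of all genes did. For DMF + GSH against DMF, 30 of the 79 passed beside 29.2% of all genes (3 without the block, beside 0.819%), and for DMF + GSH against Ctrl 0 of 79 did. The lists were chosen with earlier results of these data known, so their counts are descriptions.

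**Figure D4:**
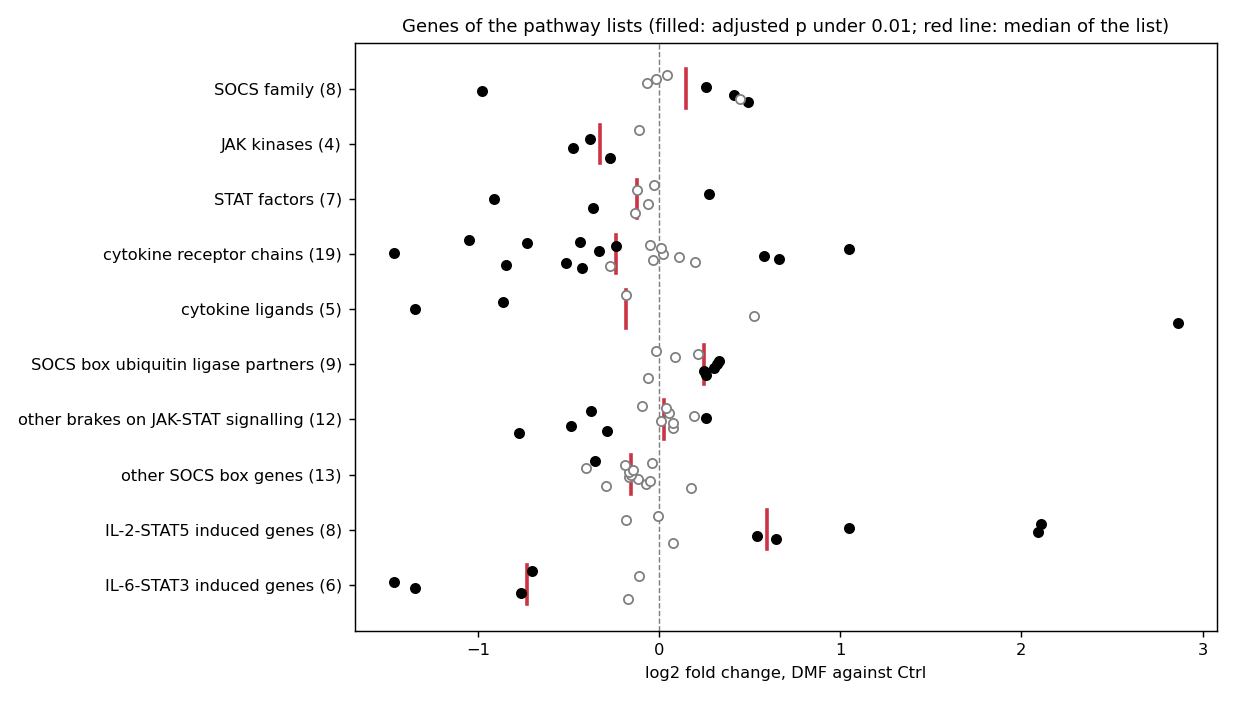
log2 fold change of DMF against Ctrl for each tested gene of the SOCS family and of 9 lists around it (number tested in brackets), where filled points have a limma adjusted p under 0.01 and the red line is the median of the list. The medians are 0.59 for the IL-2-STAT5 list and −0.73 for the IL-6-STAT3 list, with the SOCS family at 0.15 between them.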

How the data were processed

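Murine Tc17 cells were profiled by RNA-Seq, and the 9 libraries were grouped by the sample titles. The authors prepared poly(A) RNA with a kit that does not mark strand, mapped 50-base single reads to GRCm38 with STAR 2.4.0b, counted them per gene with featureCounts and fitted DESeq2 with the preparation batch. The authors deposited each count divided by a factor for its library, here treated as a signal (normalized count) and not as raw counts. Whole reads recovered from the smallest step of each library came out whole for 100% of values above 0 (tolerance 0.01 reads), and their sums are the depth. The deposited table also holds the authors' own fold changes and p-values, which were not used.

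The main test was limma-trend (limma 3.58.1, R 4.3.3), with group and replicate number as terms. It was run on log2(normalized count + 1) over 11599 genes, those whose mean reached 10, with all 9 libraries in 1 fit. Adjusted p-values are Benjamini-Hochberg over all genes tested. The replicate numbers paired the libraries: deviations from the group means correlated across genes with 0.447 to 0.578 for libraries of the same number (9 pairs) and with −0.471 to −0.0621 for libraries of different numbers (18 pairs). The batch is contained in the block, and the study's model with batch alone was run beside it. Other alternatives were edgeR 4.0.16 and voom on the recovered reads, pseudocounts of 0.5 and 4, other minimum means and TMM rescaling. Robust moderation, a fit on only the libraries compared and the omission of each library were also run. The scripts were tested on simulated data.

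Positions are from GENCODE vM21 (40254 of the 41388 identifiers matched), and promoters are from RefSeq. Elob and Eloc are named Tceb2 and Tceb1 in the table. Named genes are all 8 members, the 3 genes most like each, genes of the lists past the stricter rule with at most 3 others past the test, and 7 receptor, kinase and STAT genes on which the members act. Il2rg, Ptpn11, Pias1, Cul2, Cul5 and the genes of short lists that did not pass were named after their values were seen. The members and lists were chosen with earlier results of these data known. Python 3.11.15 and pandas 2.3.3 were used for tables and figures.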

Additional observations from a re-analysis of the deposited data

How the results depend on the processing

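The replicate block decided the calls. With it, 4 of 8 SOCS family members passed for DMF against Ctrl, 3 for DMF + GSH against DMF and 0 for DMF + GSH against Ctrl, beside 33.2%, 29.2% and 0.0259% of all genes. Without it, 0 members passed in each comparison, both with the batch term and with no batch term. With the batch term, all genes past the test went from 3848 to 834 for DMF against Ctrl and from 3391 to 95 for DMF + GSH against DMF. The fold changes are the same in both fits, and what differs is how much of the spread between replicate numbers counts as error: with the batch term the difference of R2 from R3, and with no batch term that of R1 as well. Asking also for an absolute log2FC of at least 0.75 left 1 member in DMF against Ctrl and 1 in DMF + GSH against DMF, and an adjusted p under 0.05 gave 5 in each (45% and 41.5% of all genes). With no minimum on the mean, 5 members passed for DMF + GSH against DMF. Leaving out 1 library at a time gave 0 to 5 members for DMF against Ctrl and 0 to 5 for DMF + GSH against DMF over both kinds of fit (2 to 5 and 3 to 5 with the block, 0 to 1 and 0 to 1 without it, where all genes past the test numbered 2731 to 4043 and 2314 to 3374 with the block, 2 to 1512 and 0 to 983 without it), and 0 in every case for DMF + GSH against Ctrl. The 5 for DMF + GSH against DMF came without DMF R2.

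Under robust moderation the limma adjusted p of Cish for DMF against Ctrl was 0.0155, with edgeR and voom Socs4 missed the test, and no member called in DMF against Ctrl or in DMF + GSH against DMF changed direction in any of its 29 alternatives. TMM rescaling left the median log2FC of all genes at 0.00357, against 0.00515 as deposited. Over all members and comparisons, 599 alternative values stayed on their side of the threshold, 83 lost a call and 14 gained one. Most pairs of member and comparison were not called in the main fit and so could not lose a call, and the 599 therefore do not measure how stable the calls were. With 3 libraries a group, differences as small as that of Socs4 sit at the threshold, and with the longest coding transcript as length the level of Socs2 in Ctrl is 512 in place of 119 per kb.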
